A study of Mus musculus with 2 samples.

Results

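The genes described here are 8 genes known for the identity and the suppressor function of regulatory T cells (Treg): Foxp3, Ikzf2, Ikzf4, Lrrc32, Il10, Ebi3, Penk and Gpr83. They were matched by gene symbol, and all 8 were found among the 32285 genes counted. Their transcripts were read in T cells with at least 1 Foxp3 transcript, which numbered 193 of 6717 kept cells in the PBS library and 265 of 7194 in the UDSP-Hep library. They were set against 979 and 1063 other T cells and against 4788 and 3982 myeloid cells. The genes were chosen with their levels in these libraries known, so their being high in Foxp3-positive cells is a description and supports nothing.

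The data were single-cell RNA counts of leukocytes from mouse tumours, sorted on the leukocyte surface protein CD45. The tumours grew under the skin from B16F10-OVA, a mouse melanoma line that carries the model antigen ovalbumin. Mice were given PBS, a buffered saline, or UDSP-Hep, an agent that the labels do not describe, by injection on day 10 and then on day 12, day 14 and day 16, and tumours were removed on day 19. Each library pooled the cells of 3 tumours of 1 group and the files do not say which cell came from which tumour, so there was 1 library per group, no replicate and no test. Strain, age and sex of the mice were not given in the sources used here. Both groups carried the same grafted tumour, and no group without a tumour was analysed here.

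In every pair of values below the PBS library comes first, and every ratio is UDSP-Hep over PBS. A level is given in CPM, the transcripts of a gene per 1000000 transcripts of its cell population, counted by unique molecular identifier (UMI). All intervals are at 95% and hold counting error alone, not the variation between mice.

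Treg restrain immune responses, and in tumours they accumulate and dampen anti-tumour immunity. Foxp3 is the transcription factor that specifies and maintains them. Ikzf2 (Helios) and Ikzf4 (Eos) are zinc-finger factors of the Ikaros family that act with Foxp3 in keeping Treg genes on and effector cytokine genes off. Lrrc32 encodes GARP, a surface protein that holds latent TGF-beta on activated Treg. Il10 encodes an anti-inflammatory cytokine, and Ebi3 a chain shared by the cytokines IL-27 and IL-35. Penk encodes the precursor of the enkephalins, opioid peptides, and Gpr83 a G protein-coupled receptor used as a Treg marker.

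RefSeq promoter sequences on GRCm38.p6, reaching from 250 bases before to 50 bases after a gene's start, were matched for 3 of the 8 genes, as 4 windows because Foxp3 had 2. The first Foxp3 window, chrX:7579426-7579725, and the Ebi3 window, chr17:55952373-55952672, both on the plus strand, are shown because these genes had opposite distributions: most Foxp3 transcripts lay in Treg, most Ebi3 transcripts in myeloid cells. Capitals mark matches to 2 variants of the core word that Ikaros family proteins bind, GGGGAA and TGGGAA, searched on both strands. In both windows printed here the match is on the opposite strand, so the capitals show the reverse complement.
Foxp3: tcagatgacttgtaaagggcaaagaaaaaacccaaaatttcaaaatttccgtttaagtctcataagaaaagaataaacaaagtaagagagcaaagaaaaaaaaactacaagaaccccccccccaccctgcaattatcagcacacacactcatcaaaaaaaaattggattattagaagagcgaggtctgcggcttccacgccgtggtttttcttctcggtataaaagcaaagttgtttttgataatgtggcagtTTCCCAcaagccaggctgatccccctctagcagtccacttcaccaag
Ebi3: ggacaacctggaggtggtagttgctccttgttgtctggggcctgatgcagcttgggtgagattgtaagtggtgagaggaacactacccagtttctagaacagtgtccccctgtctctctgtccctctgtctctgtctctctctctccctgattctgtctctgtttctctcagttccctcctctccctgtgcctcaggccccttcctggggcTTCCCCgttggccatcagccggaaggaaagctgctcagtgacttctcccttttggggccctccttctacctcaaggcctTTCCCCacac
In the Ebi3 window GGGGAA matched 39 bases before the start and again 40 bases after it, and in the first Foxp3 window TGGGAA matched 3 bases after the start. The third gene with a window, Gpr83, held TGGGAA on its own strand 120 bases before its start, and the second Foxp3 window held no match. Such words are common: GGGGAA was in 23.3% and TGGGAA in 25.6% of all 32851 promoter windows of this length. The AP-1 word TGACTCA with its reverse complement TGAGTCA (5.20% of all windows), the cAMP response core TGACGT (7.51%), its variant TGCGTCA known from the enkephalin gene (2.12%) and the forkhead word GTAAACA (3.65%) were absent from the 4 windows. A match describes letters, not a bound site.

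On GRCm38, the assembly that mm10 names, GENCODE M21 places Foxp3 (ENSMUSG00000039521) at chromosome X, 7573644 to 7595245, plus strand. Ikzf2 (ENSMUSG00000025997) lies at chromosome 1, 69531214 to 69687245, minus strand, and Ikzf4 (ENSMUSG00000002578) at chromosome 10, 128630843 to 128645991, minus strand. Lrrc32 (ENSMUSG00000090958) lies at chromosome 7, 98489283 to 98502181, plus strand, and Il10 (ENSMUSG00000016529) at chromosome 1, 131019845 to 131024974, plus strand. Ebi3 (ENSMUSG00000003206) lies at chromosome 17, 55952640 to 55957022, plus strand. Penk (ENSMUSG00000045573) lies at chromosome 4, 4133531 to 4138819, minus strand, and Gpr83 (ENSMUSG00000031932) at chromosome 9, 14860210 to 14870789, plus strand. Lrrc32, Il10 and Gpr83 overlapped no other annotated gene. Foxp3 shares its locus with Flicr on the same strand and Ikzf2 with Gm28112 and Gm29112 on the same strand, so reads of these genes may be hard to separate. The libraries held 7379 and 7872 barcodes with 74685827 and 64241224 UMIs, and 25 barcode sequences occurred in both libraries.

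T cells were taken from clusters built without the 8 genes, and numbered 1172 and 1328. Of these clusters 2 were Treg-like by markers other than the 8 genes: T7, with 169 and 227 cells, and the cycling cluster T12, with 38 and 49 cells, led by Top2a and Mki67. A Foxp3 UMI was found in 88.8% and 89.4% of T7 cells and in 97.4% and 91.8% of T12 cells. Together T7 and T12 held 187 of 193 and 248 of 265 Foxp3-positive T cells. Il2ra and Ctla4 were among the markers used to name T7 and T12 Treg-like, so their levels here are a description. Foxp3-positive T cells had Cd4 at 228.5 and 249 CPM against Cd8a at 42.0 and 44.0 CPM. Il2ra, the high-affinity IL-2 receptor chain, was at 843 and 1461 CPM against 59.8 and 111 CPM in other T cells, and the checkpoint receptor Ctla4 at 2725 and 2927 CPM against 328 and 505 CPM.

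Markers of other cell types were also counted in these cells. The 8 macrophage markers all had UMIs in Foxp3-positive T cells and summed to 114 and 186 CPM, 2.21% and 3.22% of their level in macrophages and monocytes. The 7 neutrophil markers summed to 24.3 and 55.95 CPM, with S100a8, Retnlg, Cxcr2 and G0s2 at 0 in the PBS library and none at 0 in the UDSP-Hep library. The 6 monocyte markers summed to 1038 and 1134 CPM, 13.3% and 15.3% of their level in their own cells, and the 8 NK markers to 289.5 and 229 CPM, 1.54% and 1.44%. The 6 CD8 T cell markers had the highest sum of these lists and the largest difference in CPM between the libraries, at 2499 and 1781 CPM, 36.2% and 23.05% of their level in CD8 T-like cells. This list includes Cd3e, also a general T cell marker, at 694 and 696 CPM, and Ccl5 at 791 and 426 CPM. Its Cd8a was at 42.0 and 44.0 CPM and its Cd8b1 at 62.2 and 34.6 CPM. The 7 markers of mature dendritic cells summed to 520 and 572 CPM, 4.36% and 4.83% of their own level, with Fscn1 at 0 in PBS. The 6 cDC2 markers summed to 23.7 and 31.2 CPM, 0.732% and 0.810%, and the 6 B cell markers to 365 and 324 CPM, 3.51% and 3.02%. The part of these RNAs in the results was not tested. Median depths were 5685 and 6183 UMIs per Foxp3-positive T cell, 6073 and 4898 per other T cell and 8391 and 9462 per macrophage or monocyte. Clusters T11 (104 and 88 cells) and M8 (69 and 176 cells) had high doublet scores and stood outside all these populations.

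Foxp3 marked a larger share of the T cells in the UDSP-Hep library. It was detected in 16.5% (14.4 to 18.7%) and 19.95% (17.8 to 22.2%) of T cells, a ratio of 1.21 (1.02 to 1.43). With every cell thinned to 2000 UMIs, which leaves shallower cells out, the shares were 12.1% and 15.3%, a ratio of 1.26 (1.03 to 1.55). With T cells taken instead from a UMI gate, at least 2 Cd3 UMIs and none of Lyz2, Csf1r or Cd79a, the direction turned: 138 of 747 and 123 of 683 gated cells were Foxp3-positive, a ratio of 0.975. The loss was uneven, since 193 and 265 cells were Foxp3-positive before the gate. A Lyz2 UMI was found in 21.9% and 41.85% of the cells of the Treg cluster T7. The part of Lyz2 in the turn was not tested. With the high-doublet T cluster added the ratio was 1.09. The Treg clusters made up 17.7% and 20.8% of T cells, a ratio of 1.18 (1.00 to 1.38).

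Over all T cells Foxp3 stood at 103.7 and 172.5 CPM, a ratio of 1.66 (1.54 to 1.80). Past 1.5-fold in this comparison, 11.7% of 11775 genes were higher in UDSP-Hep. When every T cell was weighed the same the log2 ratio was 0.34 in place of 0.73, and after thinning it was 0.41. Within Foxp3-positive cells, which Foxp3 itself selected, its level was 629 and 655 CPM, a ratio of 1.04 (0.963 to 1.13). These cells had a median of 5 Foxp3 UMIs in both libraries, and 16.1% and 13.6% of them had exactly 1. Just outside the threshold were 20 and 28 cells of the Treg clusters with no Foxp3 UMI. Those cells still had Ikzf2 at 2915 and 3051 CPM, Lrrc32 at 158 and 270 CPM and Il10 at 219 and 316 CPM. The 187 and 248 Foxp3-positive cells of the same clusters had Ikzf2 at 2694 and 2802 CPM, Lrrc32 at 115 and 199 CPM and Il10 at 172 and 490 CPM.

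Foxp3 was rare elsewhere. Macrophages and monocytes had a Foxp3 UMI in 0.50% and 0.99% of cells, and NK-like cells in 0 of 448 and 0.412% of cells at median depths of 4004 and 3948 UMIs. A count of 0 of 448 allows a share of up to 0.670%. Of all Foxp3 UMIs in kept cells, 73.96% and 76.1% lay in Foxp3-positive T cells and 23.5% and 20.9% in the clusters of high doublet score.

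**Figure D1:**
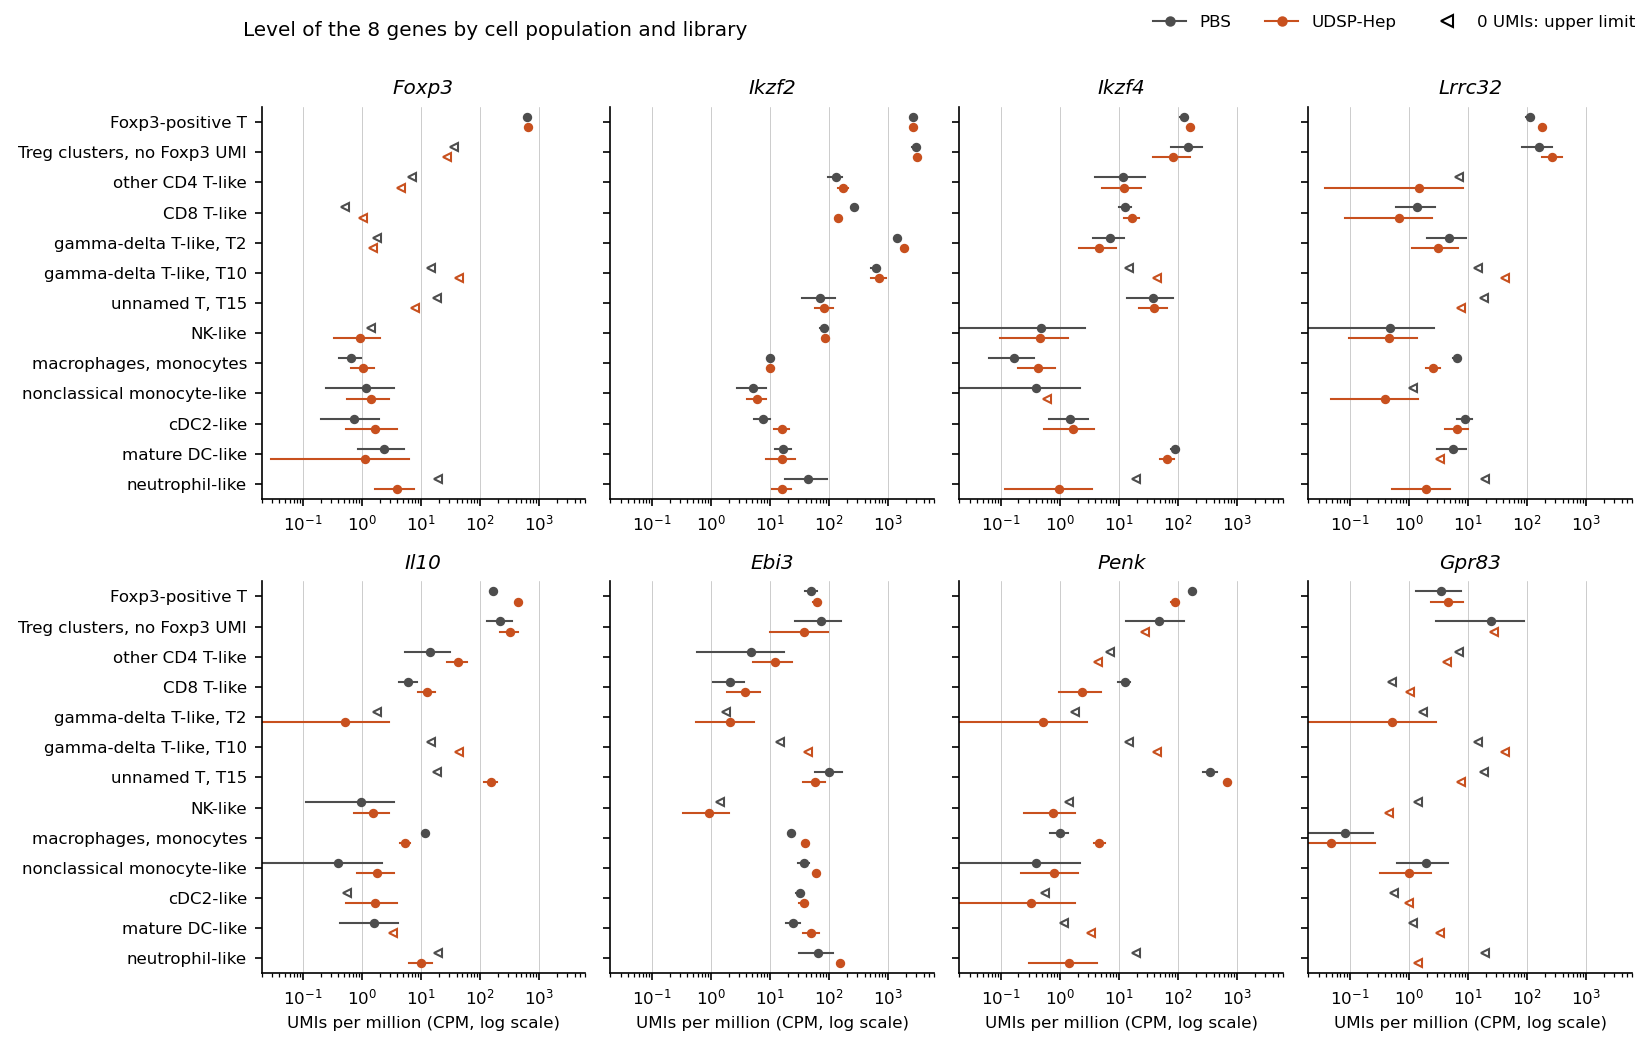
Level of each of the 8 genes in CPM (log scale) by cell population, 1 panel per gene, PBS in grey and UDSP-Hep in orange. Bars are 95% counting intervals and open triangles mark the upper limit where no UMI was counted. Foxp3 stands apart in the top row, which was chosen by it, and Lrrc32 in both top rows, Ikzf2 is also high in cluster T2, Ebi3 spreads over myeloid cells and Penk is highest in cluster T15.

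Ikzf2 was at nearly one level in the Treg of both libraries. It stood at 2592 (2516 to 2670) and 2625 (2559.5 to 2691) CPM in Foxp3-positive T cells, a ratio of 1.013 (0.974 to 1.053), and it was detected in 96.4% and 97.7% of these cells. Cluster T7 had 3223 and 3247 CPM and the cycling cluster T12 had 2045 and 2129 CPM, so the cycling Treg were lower in both libraries.

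Ikzf2 was not restricted to Treg. Cluster T2 had 1420 (1363 to 1478) and 1826 (1766 to 1887.5) CPM, the next highest level among T clusters. T2 was gamma-delta T-like by Trdc at 251 and 295 CPM and by Tcrg-C4 at 209 and 197 CPM. Its cells also carried Trac, at 516 and 437 CPM, and Cd8a, at 239 and 108 CPM. Trdc was detected in 28.1% and 28.6% of T2 cells and Trac in 70.2% and 67.05%, so the name may fit only part of T2. The small gamma-delta T-like cluster T10 followed with 613 and 693 CPM in 41 and 12 cells, its interval in the UDSP-Hep library reaching from 511 to 919 CPM. Together, T cells outside the Treg clusters held 36.6% and 31.0% of all Ikzf2 UMIs, beside 38.6% and 45.6% in Foxp3-positive T cells.

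In CD8 T-like cells Ikzf2 was at 269 and 144 CPM, a ratio of 0.535 (0.479 to 0.596), and the share of cells with a UMI was 56.6% and 22.0%, or 31.1% and 13.6% after thinning. In this comparison 8.22% of 10457 genes were past 1.5-fold in the lower direction. Different clusters held most of these cells in the libraries: T1 had 238 and 105 cells, T0 126 and 49, and T9 76 and 241. The ratio was 0.837 (0.710 to 0.983) in T1, 0.866 (0.752 to 0.995) in T0 and 0.273 (0.185 to 0.403) in T9. Cd8a was detected in 98.7% and 89.5% of T1 cells, 84.9% and 49.0% of T0 cells and 78.95% and 74.3% of T9 cells. In the small CD8 T-like cluster T13, with 24 and 26 cells, it was detected in 62.5% and 34.6%. The name may therefore fit only part of T0 and T13. The median depth of CD8 T-like cells was 9096 and 4653 UMIs.

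Ikzf4 was at 127 (110 to 145) and 157 (141.5 to 174) CPM in Foxp3-positive T cells, a ratio of 1.24 (1.05 to 1.48). Its share of cells with a UMI was 50.3% and 54.7%, against 0.223% and 0.206% of NK-like cells. It had a separate site of detection outside T cells: mature dendritic cell-like cells, marked by Ccr7 and Fscn1, had 88.1 and 66.3 CPM, with a UMI in 45.0% and 41.3% of cells. The cDC2-like cells were far lower, at 1.497 and 1.652 CPM, and cDC1-like cells had 1.474 and 18.37 CPM (4 and 8 UMIs), with 7 of the 8 UDSP-Hep UMIs in 1 cell. CD8 T-like cells had 12.8 and 16.6 CPM and other CD4 T-like cells 11.95 and 12.0 CPM, and the intervals of both ratios included equality.

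None of the 5 genes of the Ikaros family, Ikzf2 and Ikzf4 among them, was past 1.5-fold in Foxp3-positive T cells, and their median log2 ratio was -2.48e-04. Ikzf4 was past 1.5-fold under the UMI gate, at a log2 ratio of 0.85, and without cells with a Mki67 or Top2a UMI. Ikzf1 (Ikaros) was at 201 and 189 CPM, a ratio of 0.940 (0.814 to 1.09). Ikzf3 (Aiolos) was at 171 and 148 CPM, a ratio of 0.864 (0.737 to 1.01).

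Lrrc32 was higher in the Treg of the UDSP-Hep library and lower in its macrophages. Of 9577 genes with at least 20 UMIs in Foxp3-positive T cells, 10.0% were past 1.5-fold higher in UDSP-Hep and 5.35% lower. In Foxp3-positive T cells it was at 111 (95.4 to 128) and 181 (164 to 199) CPM, a ratio of 1.63 (1.37 to 1.95). More of the cells had it, 42.5% (35.4 to 49.8%) and 55.1% (48.9 to 61.2%), a ratio of shares of 1.297 (1.065 to 1.579). NK-like cells had it in 0.223% and 0.206%. The ratio was 1.56 (1.28 to 1.90) in T7, where 10.7% of genes were past 1.5-fold higher, and 2.01 (1.43 to 2.87) in T12, where 12.5% were. The ratio was under 1.5-fold when cells were thinned to 2000 UMIs, to a log2 ratio of 0.48, or weighed equally, to 0.52.

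In macrophages and monocytes Lrrc32 was at 6.46 (5.65 to 7.36) and 2.58 (1.94 to 3.37) CPM, a ratio of 0.3995 (0.291 to 0.5395). Past 1.5-fold, 5.53% of 12320 genes were lower in this comparison. Cluster M5 carried most of it, with 120 of 228 UMIs in the PBS library, and there the level was 20.4 and 6.09 CPM, a ratio of 0.298 (0.171 to 0.491). Cluster M7, at 10.75 and 3.92 CPM, had 569 PBS cells and only 50 UDSP-Hep cells. In M6 the ratio was 1.345 (0.637 to 2.94), an interval that included equality. As a share of all Lrrc32 UMIs, Foxp3-positive T cells held 29.7% and 56.2%, and macrophages and monocytes with the nonclassical monocyte-like cells held 36.2% and 7.44%.

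GARP works with latent TGF-beta, and 3 of 14 genes of TGF-beta activation and response were past 1.5-fold higher in Foxp3-positive T cells, with none lower, beside 10.0% of all 9577 genes higher and 5.35% lower. The ligand Tgfb1 was at 157 and 277 CPM, a ratio of 1.77 (1.53 to 2.05). Furin, the protease that cleaves its precursor, was at 61.0 and 103 CPM, a ratio of 1.70 (1.34 to 2.16), and the receptor Tgfbr1 at 43.2 and 66.2 CPM, a ratio of 1.53 (1.15 to 2.05) that was under 1.5-fold in 3 alternatives, with log2 ratios of 0.52 to 0.57. Smad2, a signal transducer, had a ratio of 1.40 (0.977 to 2.02). The median log2 ratio of the 14 genes was 0.21, beside 0.04 for all 9577 genes.

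Il10 showed the widest difference of the 8 genes in Foxp3-positive T cells. It was at 165 (146 to 185) CPM in PBS and 440 (414 to 468) CPM in UDSP-Hep, a ratio of 2.68 (2.34 to 3.07). Behind these levels were 278 and 1031 UMIs. The share of cells with an Il10 UMI differed less: 35.2% (28.5 to 42.4%) and 40.0% (34.05 to 46.2%), a ratio of 1.135 (0.892 to 1.445) whose interval included equality. After thinning the shares were 20.65% and 27.6%. NK-like cells had an Il10 UMI in 0.446% and 0.619% of cells.

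The cells that had Il10 held more of it in UDSP-Hep. The median was 2 UMIs per cell with Il10 in PBS and 4 in UDSP-Hep, and 26 of 193 and 51 of 265 cells had at least 5. A single UDSP-Hep cell held 132 UMIs, 12.8% of the library's count, while the highest PBS cell held 23. With the highest cell of each library left out the ratio was 2.48 (2.16 to 2.87). In the cluster T7 Il10 was at 203 and 650 CPM, a ratio of 3.196 (2.732 to 3.754), and in the cycling cluster T12 at 138 and 215 CPM, a ratio of 1.558 (1.218 to 2.003). Cells with a Mki67 or Top2a UMI made up 38.9% and 33.96% of the Foxp3-positive T cells, and without them the log2 ratio of Il10 was 1.615.

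**Figure D2:**
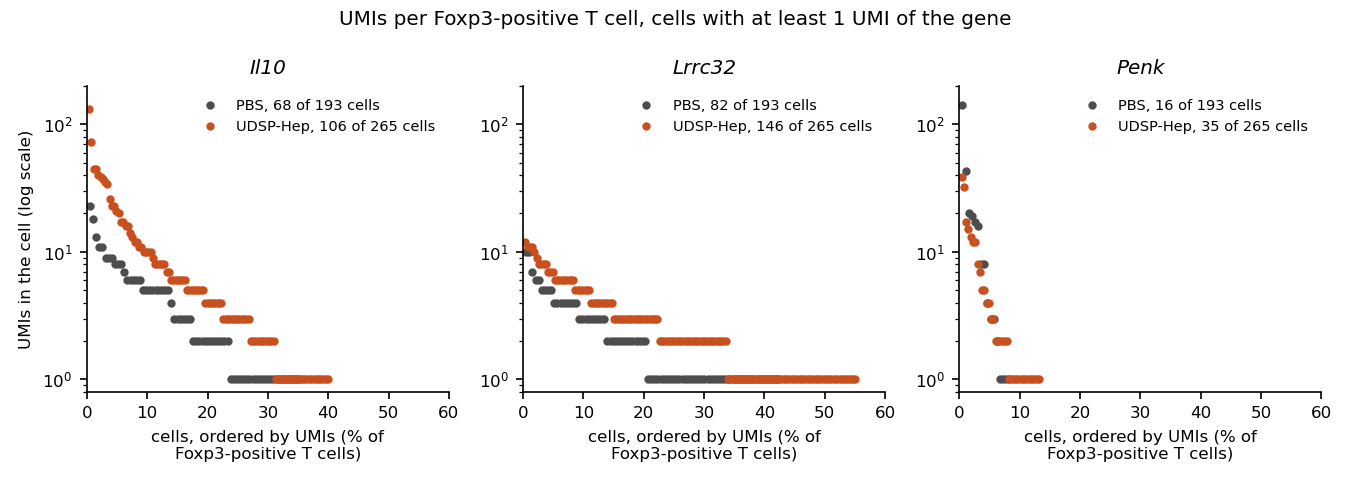
UMIs of Il10, Lrrc32 and Penk in each Foxp3-positive T cell that had any (log scale), against the cell's rank as a percentage of all 193 PBS (grey) and 265 UDSP-Hep (orange) cells. The UDSP-Hep points lie above the PBS points over most of the Il10 and Lrrc32 panels, and a single PBS cell with 142 UMIs tops the Penk panel.

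In macrophages and monocytes Il10 was lower in UDSP-Hep. It was at 11.8 (10.7 to 13.0) and 5.45 (4.49 to 6.55) CPM, a ratio of 0.46 (0.371 to 0.567). Clusters M1 and M7 held 94 and 137 of the 418 PBS UMIs, and they had 428 and 569 cells in PBS but 21 and 50 in UDSP-Hep. M1 was led by the heat shock genes Hspa1a and Hspa1b. In clusters well filled in both libraries the ratio was 0.341 (0.162 to 0.653) in M5, 0.542 (0.382 to 0.762) in M6 and 1.975 (0.892 to 4.81) in M2. In M6, 37 of the 92 PBS UMIs came from 1 cell. Macrophages and monocytes were 53.6% and 26.6% of kept cells (3600 and 1912 cells) and nonclassical monocyte-like cells 5.17% and 10.0% (347 and 720 cells). Together they held 44.6% of all Il10 UMIs in PBS and 7.56% in UDSP-Hep, and Foxp3-positive T cells 29.6% and 63.3%.

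**Figure D3:**
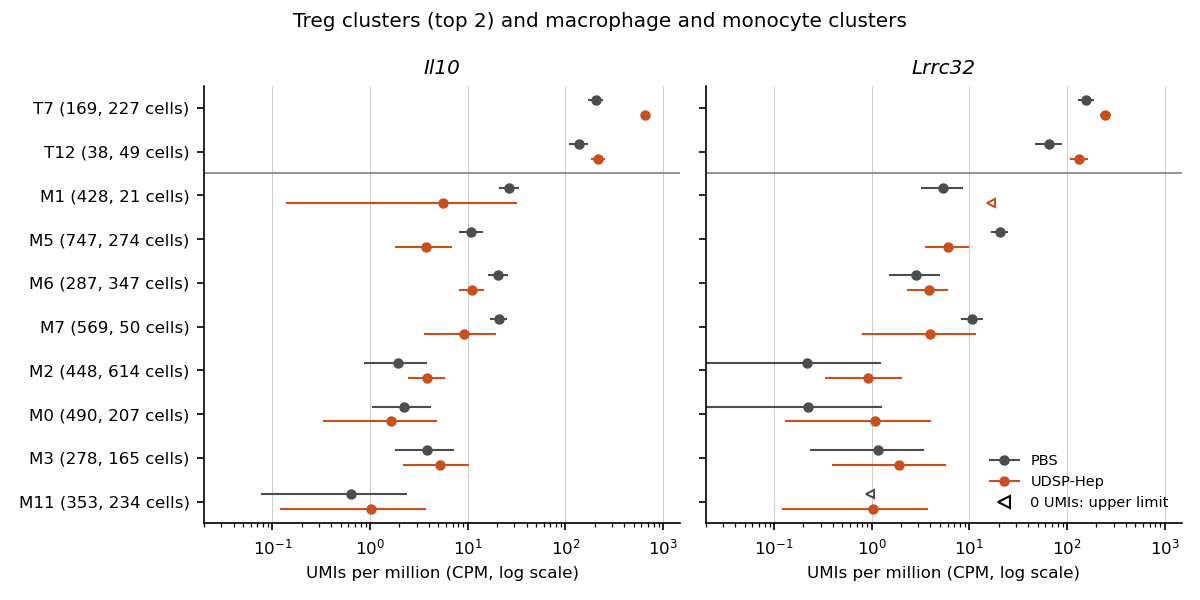
Il10 and Lrrc32 levels in CPM (log scale) in the Treg clusters T7 and T12 and in the macrophage and monocyte clusters, PBS in grey and UDSP-Hep in orange, with 95% counting intervals and, after each cluster's name, its PBS and UDSP-Hep cells. Both genes are higher in UDSP-Hep in T7 and T12, and lower in M5.

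CD8 T-like cells, other CD4 T-like cells and cluster T2 had little Il10. CD8 T-like cells were at 6.14 and 12.75 CPM, but 19 of the 37 UDSP-Hep UMIs came from 1 cell. Other CD4 T-like cells were at 14.3 and 42.1 CPM, and 22 of the 28 UDSP-Hep UMIs came from 1 cell. Cluster T2 had 0 and 1 UMIs. The unnamed Cd4-positive T cluster T15, described below with Penk, had 0 UMIs in PBS but 151 CPM in UDSP-Hep, on 58 UMIs.

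Of 9 measured genes of the IL-10 system, 1 was past 1.5-fold higher in Foxp3-positive T cells and none was lower, a share near the 10.0% of all 9577 genes. Socs3, a feedback inhibitor of cytokine signalling, was at 36.7 and 64.9 CPM, a ratio of 1.77 (1.31 to 2.42). With the T cluster of high doublet score added its log2 ratio was 0.30, under 1.5-fold. Maf, a transcription factor that drives Il10 in T cells, was at 1117 and 1442 CPM, a ratio of 1.29 (1.22 to 1.37). The receptor gene Il10ra was at 114 and 97.8 CPM, with an interval of the ratio from 0.704 to 1.04. The list's median log2 ratio was -0.16.

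Ebi3 was the member least tied to Treg. In Foxp3-positive T cells it was at 49.7 (39.7 to 61.6) and 62.4 (52.7 to 73.3) CPM, a ratio of 1.25 (0.952 to 1.66) whose interval included equality. Cells with a UMI made up 26.9% and 32.8%, against 0 of 448 and 0.412% of NK-like cells. Foxp3-positive T cells held only 5.79% and 6.75% of its UMIs, and macrophages and monocytes with the nonclassical monocyte-like cells 61.5% and 52.1%.

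In myeloid cells as a whole Ebi3 was at 25.05 and 50.4 CPM, a ratio of 2.01 (1.87 to 2.17), where 11.1% of 13239 genes were past 1.5-fold higher. Neutrophil-like cells had the highest level of the larger myeloid classes, 63.9 (10 UMIs in 55 cells) and 156 CPM (324 UMIs in 841 cells). Eosinophil-like cells had no UMI in 7 PBS cells and 146.5 CPM (19 UMIs in 135 cells) in UDSP-Hep. Nonclassical monocyte-like cells had 37.3 and 59.4 CPM, and mature dendritic cell-like cells had 24.8 and 49.4 CPM. In macrophages and monocytes it was at 22.6 and 39.8 CPM, a ratio of 1.76 (1.60 to 1.945), where 10.1% of genes were past 1.5-fold higher. By cluster, M2 had a ratio of 1.989 (1.593 to 2.499), M6 of 1.90 (1.52 to 2.39) and M5 of 1.71 (1.25 to 2.33). In M0, M1, M3, M7 and M11 the interval included equality. Neutrophil-like cells were 0.819% and 11.7% of all kept cells, which enters the pooled myeloid level.

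The partner chains of Ebi3 were hardly seen in Foxp3-positive T cells. Il12a, its partner in IL-35, had 2 and 7 UMIs, and Il27, its partner in IL-27, had 1 UMI in each library. Il12b and Il23a, other IL-12 family chains on the same list, had none. Among the 4 measured genes of this list none was past 1.5-fold: the shared receptor chain Il6st had a ratio of 1.24 (0.993 to 1.55) and Il27ra of 1.03 (0.833 to 1.28).

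Penk gave a lower pooled level in UDSP-Hep that rested on few cells. It was at 171 (152 to 192) and 87.6 (76.0 to 100.4) CPM in Foxp3-positive T cells, a ratio of 0.512 (0.426 to 0.614). A single PBS cell held 142 of the 289 UMIs, or 49.1%, and the 5 highest PBS cells held 83.4%. Without the highest cell of each library the levels were 87.7 and 71.1 CPM, a ratio of 0.810 (0.645 to 1.02) whose interval included equality. The share of cells with a Penk UMI pointed the other way, 8.29% (4.81 to 13.1%) and 13.2% (9.38 to 17.9%), a ratio of 1.59 (0.909 to 2.79). Its log2 ratio was 0.02 with every cell weighed the same, 0.25 after thinning and 0.44 without cycling cells.

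Penk was higher in a T cluster that nearly lacked Foxp3. The unnamed cluster T15 was led by Ccl1, Il13 and Csf2 and had Cd4 at 612 and 450 CPM. Its 13 and 44 cells without a Foxp3 UMI had Penk at 347 (261 to 451.5) and 687 (606.5 to 775) CPM. In each library 1 cell held much of it, 37 of the 55 PBS UMIs and 135 of the 264 UDSP-Hep UMIs. These cells had Il10 in 0 of 13 PBS cells and at 151 (115 to 195) CPM in UDSP-Hep, with 24 of 58 UMIs in 1 cell. They had Ebi3 at 100.9 and 57.2 CPM and no Lrrc32 UMI. A count of 0 allows up to 18.9 CPM of Il10 in the PBS cells. In the cDC1-like cells of UDSP-Hep all 79 Penk UMIs came from 1 of 25 cells, and in macrophage cluster M6 72 of 88 came from 1 cell. Among those cDC1-like cells 1 cell also held all 9 Foxp3 UMIs, and 1 cell held 51 of the 78 Ikzf2 UMIs. Whether these UMIs and those of Penk lay in the same cell was not tested.

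Of the 9 genes of opioid processing and opioid receptors, 7 had no UMI in Foxp3-positive T cells of either library, among them the receptors Oprm1, Oprd1 and Oprk1. The processing enzymes were low: the convertase Pcsk1 was at 16.0 and 20.1 CPM, a ratio of 1.26 (0.766 to 2.10), and the carboxypeptidase Cpe at 15.4 and 14.5 CPM.

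Gpr83 was barely detected. It had 6 and 11 UMIs in Foxp3-positive T cells, in 2 and 8 cells, which gave 3.552 (1.303 to 7.731) and 4.70 (2.35 to 8.41) CPM. The interval of the ratio, 1.32 (0.448 to 4.36), included equality, and no difference was detectable at this depth. In all kept cells it had 21 and 22 UMIs.

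**Figure D4:**
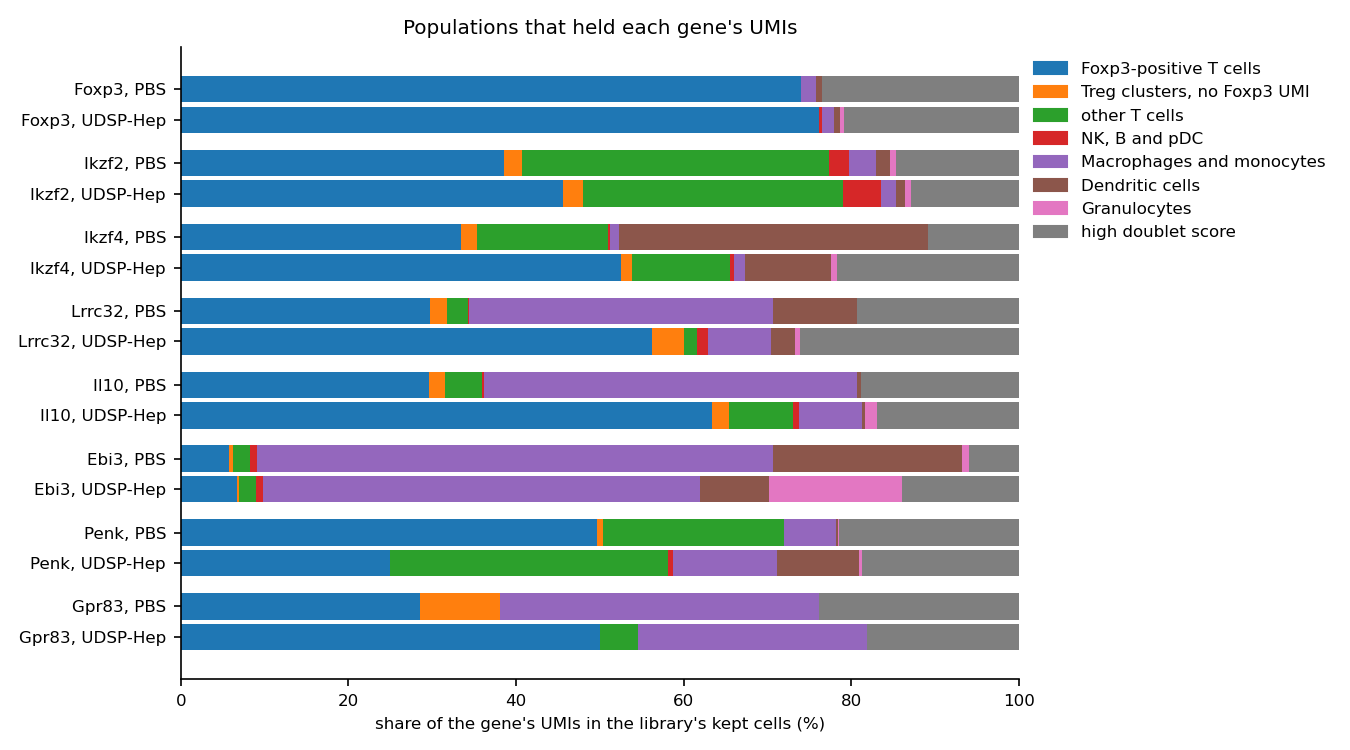
Share (%) of each gene's UMIs in kept cells that lay in each population, 1 bar per gene and library. Macrophages and monocytes include nonclassical monocyte-like cells here. The Foxp3-positive T cell share of Il10 goes from 29.6% to 63.3% and that of Lrrc32 from 29.7% to 56.2%, while Ebi3 stays mostly in myeloid cells. The shares depend on how many cells of each population a library holds.

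Of the 7 members other than Foxp3, 6 had at least 20 UMIs in Foxp3-positive T cells. Il10 and Lrrc32 were past 1.5-fold higher and Penk was past 1.5-fold lower, and Ikzf2, Ikzf4 and Ebi3 were past neither. Over all 9577 genes counted there, 962 (10.0%) were past 1.5-fold higher and 512 (5.35%) lower. The median log2 ratio of the 6 genes was 0.32, beside 0.04 for all genes. With so few members, chosen with these values known, the count is a description.

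**Figure D5:**
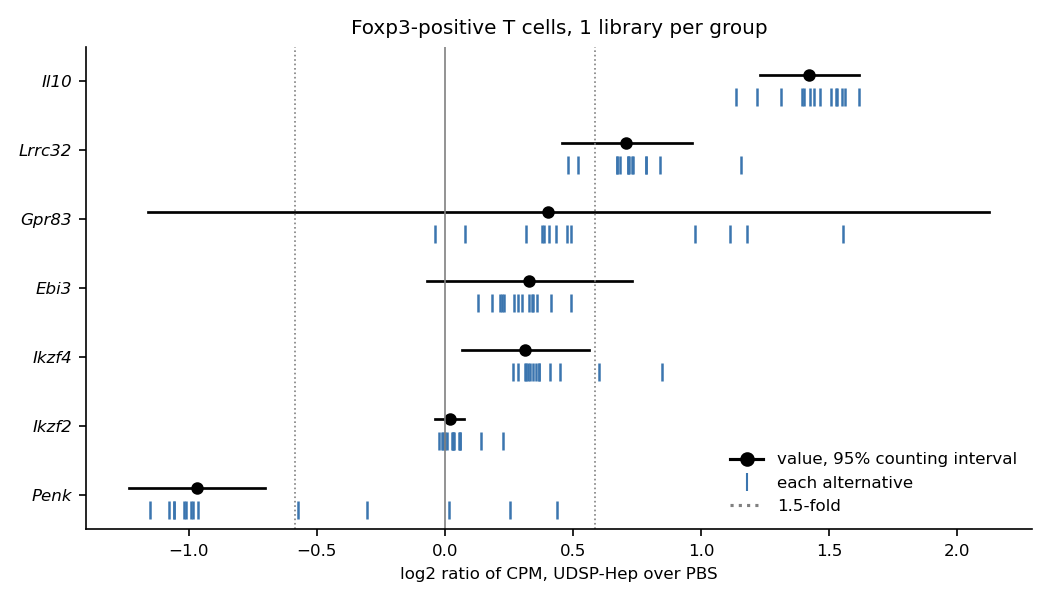
Log2 ratio of CPM, UDSP-Hep over PBS, in Foxp3-positive T cells for the 7 members other than Foxp3. Black points with bars are the values with 95% counting intervals, blue ticks the values under each alternative, dotted lines 1.5-fold. Il10 stays to the right of 1.5-fold under every alternative drawn, Ikzf2 lies between -0.02 and 0.23, and Penk reaches from -1.15 to 0.44.

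Within a library, Foxp3-positive T cells exceeded T cells without a Foxp3 UMI in each of the 6 members with enough UMIs, as the choice of genes implies. The folds were 5.05 and 3.82 for Ikzf2, 9.67 and 11.3 for Ikzf4, 32.6 and 28.9 for Lrrc32, and 23.45 and 18.3 for Il10. For Ebi3 they were 11.8 and 8.34, and for Penk 11.25 and 2.11. The Penk folds rested on few cells. In PBS 1 Foxp3-positive T cell held 142 of 289 UMIs, and in UDSP-Hep cluster T15 held 264 of the 272 UMIs of the other T cells. In these contrasts 15.5% and 16.4% of all genes were past 1.5-fold higher. Against myeloid cells the fold of Ebi3 was 1.985 in PBS and 1.24 (1.04 to 1.47) in UDSP-Hep, while that of Lrrc32 was 18.7 and 72.15 and that of Il10 19.1 and 94.9. There 37.7% and 36.7% of all genes were past 1.5-fold higher.

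Single Treg carried several of these genes at once. A median of 3 of the 7 other members was detected per Foxp3-positive T cell in both libraries, and 5 of 193 and 4 of 265 cells had none. Exactly 4 were detected in 28 and 61 cells, 5 in 6 and 21 cells, and 6 in 2 and 5 cells.

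Cells with Il10 were deeper in both libraries. In PBS the 68 cells with it had a median of 6490.5 UMIs and the 125 cells without it 5481. In UDSP-Hep the 106 cells with Il10 had a median of 6893.5 UMIs and the 159 cells without it 5813. Lrrc32 was found in 59.4% of the UDSP-Hep cells with Il10 and 52.2% of those without it, and its level was 178 and 182.5 CPM. Ikzf4 was lower in the cells with Il10 than in those without it, at 132 against 174 CPM, and in the PBS library at 85.7 against 155 CPM. These splits share libraries and depth, and were not tested.

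Other Treg genes were described from lists chosen by function. Among 21 Treg transcription factors 2 were past 1.5-fold higher and none lower, a share near the 10.0% of all genes. Irf4, needed for effector Treg, was at 59.8 and 121 CPM, a ratio of 2.02 (1.61 to 2.56), and Bach2, which restrains effector differentiation, had only 4 and 18 UMIs, and its direction turned under the UMI gate for T cells. Satb1, a chromatin organiser, had a ratio of 1.44 (1.26 to 1.65). The list's median log2 ratio was 0.04, as over all genes.

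Among 20 surface receptors 3 were past 1.5-fold higher and none lower, beside 10.0% and 5.35% of all genes. The IL-33 receptor Il1rl1 was at 81.1 and 143.5 CPM, a ratio of 1.77 (1.45 to 2.175). Il2ra had a ratio of 1.73 (1.63 to 1.845) and the checkpoint receptor Lag3 1.72 (1.55 to 1.905). The costimulator Icos had 1.33 (1.26 to 1.41). The median of the list was 0.16.

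Among 9 other suppressor and repair products 3 were past 1.5-fold higher and none lower, beside 10.0% and 5.35% of all genes. They were Areg, the growth factor amphiregulin, at 247 and 803 CPM, Il1rn, the IL-1 receptor antagonist, at 28.4 and 76.5 CPM, and Tgfb1. For Il1rn the direction turned once the T cluster of high doublet score was added. Nt5e (CD73), which makes adenosine, had a ratio of 0.678 (0.540 to 0.849).

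Of 15 immediate early genes, which respond to stimulation and to handling of cells, 11 were past 1.5-fold higher in UDSP-Hep and none lower, beside 10.0% and 5.35% of all genes, with a median log2 ratio of 0.66. Fosb was at 20.1 and 105.5 CPM, Fos at 120 and 384 CPM, a ratio of 3.195 (2.741 to 3.740), and Egr2 and Egr3 had ratios of 1.92 and 1.94. Under the UMI gate Egr2 turned lower, the log2 ratio of Egr3 was 0.52, under 1.5-fold, and that of Fosb went from 2.39 to 0.94. With the T cluster of high doublet score added Fos was at 0.48 on the log2 scale and Egr2 at 0.41, both under 1.5-fold, and Egr2 was at 0.55 with every cell weighed the same. Of 7 heat shock genes 2 were past 1.5-fold lower and none higher: Hspa1b was at 243 and 29.9 CPM and Hspa1a at 72.8 and 15.4 CPM. These paralogs are almost alike in sequence, and how reads were divided between them is uncertain. The other 5 were past neither, from Dnajb1 at 0.684 (0.532 to 0.878) to Hspa8 at 1.07 (1.02 to 1.13). Of 10 proliferation genes 1 was past 1.5-fold lower, Ccnb2, at 104 and 67.5 CPM, and in 5 alternatives it was inside 1.5-fold, at log2 ratios of -0.56 to -0.46. The part of cell handling, of cycling cells and of RNA from other cell types in the ratios of Il10 and Lrrc32 was not tested.

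The genes of Foxp3-positive T cells furthest from equality by the nearer bound of the interval were Xcl1, Tpm3-rs7, Ifng, Retnla and Fosb on the higher side. For 3 of them 1 UDSP-Hep cell held most of the UMIs: 74 of 130 for Xcl1, 347 of 498 for Ifng and 97 of 106 for Retnla. Ifng turned lower under the UMI gate, and Retnla did so under 5 of the alternatives run. Tpm3-rs7 was spread over 86 cells, at 4.74 and 76.0 CPM. As a near copy of Tpm3 it may share reads with that gene. On the lower side were Hspa1b, Hspa1a, Gm42031, Cdc20 and Ccl5. Ccl5, a chemokine of effector T cells, was at 791 and 426 CPM, a ratio of 0.539, with 213 of 1336 PBS UMIs in 1 cell. Under the UMI gate the log2 ratios of Ccl5 and Xcl1 were -0.31 and 0.44, and after thinning that of Cdc20 was -0.48, all inside 1.5-fold. Ifng was inside it too in the Treg clusters, at 0.081.

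Likeness of profiles was measured as Pearson's r of log2(CPM + 10) over 24 points, 12 populations in each of the 2 libraries, among 6277 genes. The points share libraries and, for related cell types, much of their expression, so r is given with no test. Foxp3-positive T cells were 1 of the 12 populations, and since T cells with a Foxp3 UMI were all placed there, Foxp3 is at 0 in the other T cell populations by construction. Foxp3 was most like Itgb8, an integrin chain that activates TGF-beta (r = 0.99), Ccn4 (0.96) and Lrrc32 (0.96). Lrrc32 was most like Itgb8 (0.96), Foxp3 and the integrin chain Itgae (0.94). Ikzf4 was most like Il2ra (0.93), Tnfrsf4 (0.89) and Wnk1 (0.87), and Il10 most like Lamc1 (0.94), Ccn4 (0.94) and Angptl2 (0.93). Ikzf2 was most like Gm28112 (0.93), which lies within the same locus on the same strand, then I730030J21Rik (0.86) and Ptprcap (0.85). Ebi3 was most like St3gal5 (0.92), Alcam (0.90) and Rab11fip1 (0.90). Penk was most like Neb (0.96), Itgb8 (0.96) and Foxp3 (0.96), but only over these 12 populations, which needed at least 50 cells in each library. That rule left out the cDC1-like cells and cluster T15. In T15, cells with no Foxp3 UMI had Penk at 347 and 687 CPM, above the Foxp3-positive T cells. No likeness is given for Gpr83, whose highest level, 4.70 CPM, is below the 10 CPM added before the log.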

How the data were processed

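Single-cell libraries of CD45-sorted leukocytes were made with the 10x Genomics system, 1 per group, from 10000 loaded cells each. The authors deposited whole-number UMI counts per gene and barcode. Per the submitters' processing notes, Cell Ranger 7.0.0, the build mm10 and Seurat, without a version, were used. The smallest deposited barcode had 500 UMIs.

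Kept barcodes had 200 genes or more, 500 UMIs or more and a mitochondrial share below 10%. Scrublet's own threshold marked 0.0138% and 0.0129% of barcodes and had not worked, so the highest doublet scores were removed at 0.8% per 1000 barcodes, 417 and 481 of the barcodes that passed the filters. Cells were clustered without the 8 genes (scanpy 1.11.5, 2000 variable genes, 30 principal components, 15 neighbours, Leiden resolution 1.0), and T and NK cells and phagocytes were clustered again, which gave 36 clusters. Clusters were named from marker lists, requiring 3 markers, a lead of 0.5 on the log2 scale and an average doublet score no higher than 0.08, all chosen after seeing the data. T cells were clusters with at least 2 Cd3 genes at a log2 ratio of 1 or more. Outside the UMI gate, Lyz2 was used only to send first-round clusters with few markers of their best type to the phagocyte clustering. There 3 clusters without a name of their own (M1, M2, M5) were placed among macrophages and monocytes. The rule was at least 3 macrophage or monocyte markers at a log2 ratio of 1 or more over the T and NK clusters.

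CPM were computed from summed counts, with exact Poisson intervals. Ratios have exact conditional binomial intervals, shares Clopper-Pearson intervals and ratios of shares Katz log intervals, all at 95%. Read errors and the variation between mice are not in them. A gene counted as past 1.5-fold had at least 20 UMIs over both libraries. The limit for a count of 0 is 3 counts.

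The members and lists were chosen with earlier results of these data known. Besides the 8 genes, the text names up to 4 genes per list with the largest absolute log2 ratio, the 3 genes of the highest r for each member but Gpr83, and the 5 genes furthest above and below equality by the nearer bound among those with at least 50 UMIs. Other list genes named, such as Oprm1 and Il12a, were chosen after their values were seen. Alternatives were other definitions of T cells and of Foxp3-positive cells, depth, doublet and mitochondrial filters, cluster resolution, scaling and fold. The scripts were tested on simulated data. Leaving out a replicate was not possible with 1 library per group.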

Additional observations from a re-analysis of the deposited data

Results flagged for a closer look

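Il10 had a ratio of UDSP-Hep over PBS of 2.676 in Foxp3-positive T cells and of 0.46 in macrophages and monocytes, opposite directions in the same pair of libraries. Lrrc32 had ratios of 1.632 and 0.3995 in the same populations. Ikzf2 had a ratio of 2.119 in cDC2-like cells, on 40 and 48 UMIs, and of 0.5346 in CD8 T-like cells. With 1 library per group, these differences between cell types were not tested.

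Foxp3 was also counted in clusters of high doublet score that no comparison used, except that an alternative added T11. It was at 42.93 and 35.26 CPM in cluster M8 and at 136.6 and 135.2 CPM in cluster T11, against 0 and 0.932 CPM in NK-like cells. The median depth was 18485 and 19755 UMIs per cell in M8 and 17734 and 19810.5 in T11.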

How the results depend on the processing

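Il10 (log2 ratio 1.14 to 1.62), Lrrc32 (0.48 to 1.16), Ikzf4 (0.27 to 0.85) and Ebi3 (0.13 to 0.49) stayed above 0 in all 14 alternatives run for each. With T cells taken by the UMI gate the log2 ratio was 0.23 for Ikzf2, 0.85 for Ikzf4, 1.16 for Lrrc32 and 1.14 for Il10, and the ratio of Foxp3-positive shares turned to 0.975. The gate left 138 and 123 Foxp3-positive cells in place of 193 and 265, an uneven loss. Penk was at -0.30 without the top cell of each library and turned to 0.017 with cells weighed equally, 0.25 after thinning to 2000 UMIs and 0.44 without cells with Mki67 or Top2a. Without those cells Ikzf2 was at 0.14 and Ikzf4 at 0.60. Foxp3 over all T cells was at 0.34 with cells weighed equally and 0.41 after thinning. With the T cluster of high doublet score Il10 was at 1.22, Penk at -0.58 and Foxp3 over all T cells at 0.60. Genes past the fold numbered 484 higher and 257 lower with at least 50 UMIs, and 328 and 123 at 2-fold, which are stricter by construction. Among other genes, the UMI gate gave -0.72 for Ifng, -0.14 for Retnla, -0.14 for Bach2 and -0.63 for Egr2. Retnla was also at -0.35 with doublets kept, -0.20 at 20% mitochondrial UMIs, -0.32 at Leiden resolution 0.5 and -1.81 with the T cluster of high doublet score, where Il1rn was at -0.0908. Where not stated, the cause was not tested. The added cluster, the restriction to Treg clusters and the removal of top cells were chosen after seeing the data. No paired analysis was possible because each group had 1 library. Depth limits Gpr83, at 6 and 11 UMIs.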
